A study of Homo sapiens with 6 samples.

Results

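The centromere and kinetochore genes are 35 genes that encode proteins of the chromosome region where spindle fibres attach. They were chosen by name: CENP proteins, subunits of the NDC80, MIS12, KNL1 and SKA complexes, and factors that load the centromeric histone. All 35 were among the 56638 gene symbols listed in the counts, and all 35 were among the 14685 genes with enough reads to be tested. Messenger RNA was sequenced from HT29, a cultured line of human colorectal cancer cells. Cells labelled RNF6 knockdown had received an siRNA against RNF6, an E3 ubiquitin ligase gene (3 libraries), and cells labelled wild type and control had received a nonspecific siRNA (3 libraries). Every library thus comes from transfected cells of a single line. How many siRNAs were used, and how long after transfection the cells were harvested, is not given in the sources used here.

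A centromere is marked by nucleosomes that hold CENPA in place of ordinary histone H3. On this chromatin sits an inner layer of CENP proteins, the constitutive centromere-associated network, and on it an outer layer, the KNL1, MIS12 and NDC80 complexes, which grips microtubules with the help of the SKA complex. Many of these genes are transcribed mainly late in the cell cycle, so their messenger RNA is known as a mark of dividing cells.

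The RNF6 siRNA libraries held 6808771 to 11071456 reads assigned to genes, and the control siRNA libraries 7173957 to 9366532. Levels are given in CPM, a gene's reads scaled to the total of reads on genes in each library, with that total adjusted by TMM scaling. RNF6 was at 16.4, 16.2 and 16.8 CPM in RNF6 siRNA replicates 1, 2 and 3, against 54.2, 45.1 and 57.6 CPM in control replicates. The log2 fold change was −1.66 with an SE of 0.126, a level 3.17-fold lower (adjusted p = 2.12e-06). The cells carried EPCAM, an epithelial adhesion gene, at 226 ± 15.0 CPM after RNF6 siRNA and 217 ± 9.88 CPM in controls (SD, n = 3 each), and CDH1 and CDX2 were also detected; these markers were named after their values were seen. KRT8 was the most abundant of the 9 colon epithelial markers, at 1252 ± 103 and 3055 ± 441 CPM, and VIL1, CDX1 (at 0 in all libraries) and LGALS4 had too few reads to be tested. The 9 sum to 1624 to 1855 CPM after RNF6 siRNA and 3181 to 4127 CPM in controls, with 3 of them lower (KRT8, KRT18 and KRT20). Of 10 markers of other cell types, the most abundant was COL1A1, at 75.3 ± 7.42 CPM after RNF6 siRNA and 56.6 ± 7.11 CPM in controls, while COL1A2, the partner chain of the same collagen, had too few reads to be tested and PECAM1 was at 0. The 10 sum to 82.6 to 95.8 CPM after RNF6 siRNA and 60.4 to 78.4 CPM in controls. COL1A1 and ACTA2 were higher and VWF lower (adjusted p = 0.0197, 0.00553 and 0.0283), ACTA2 and VWF on few reads. Of the tested genes, 50% of the colon list and 75% of the other list had an adjusted p below 0.05, against 32.7% of all genes tested. The part of either list in the results was not tested. The labels do not say that replicates were separate cultures, so a p-value here covers the scatter of the libraries alone, and that scatter may be technical.

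Of the 35 members, 9 were called higher and 2 lower after RNF6 siRNA, where a gene is called at an adjusted p below 0.05. The 11 called members are 31.4% of the list, against 32.7% of all genes tested, so the share of members that changed was near the background. For rises alone the share was 25.7% of members against 16.6% of all genes, and for falls 5.71% against 16.1%. The median log2 fold change was 0.19 over the members and 0.01 over all genes tested. The RNF6 siRNA libraries all lay above the control libraries for 14 members and all below them for 6, against 22.4% and 21.8% of all genes tested.

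The members that rose were CENPF, SKA2, CASC5, CENPE, CENPA, NDC80, CENPL, CENPU and DSN1, and those that fell were CENPH and CENPM. They are spread over all 5 subcomplexes, and in 4 of the 5 no more than 3 members were called. The CPM values of the 35 members sum to 1665, 1776 and 1792 in RNF6 siRNA replicates 1, 2 and 3, against 1360, 1234 and 1222 in control replicates. Without CENPF the sums were 1303, 1361 and 1343 CPM after RNF6 siRNA and 1167, 1104 and 1077 CPM in controls. In RNA from a whole culture, a larger share of cells late in the cycle and more RNA per such cell cannot be told apart.

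**Figure D1:**
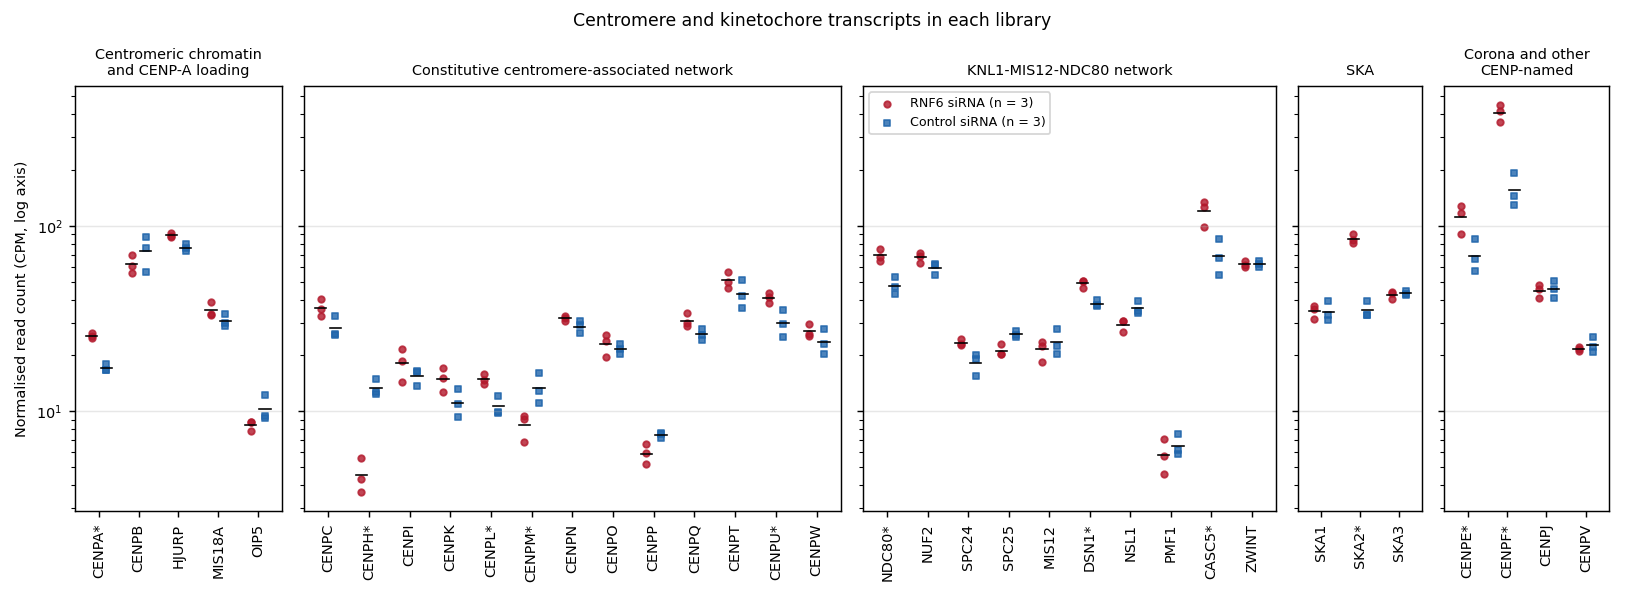
Normalised read counts (CPM, log axis) of the 35 members in each library, by subcomplex; red circles are RNF6 siRNA and blue squares control siRNA libraries (n = 3 each), black lines the group means, and an asterisk marks a called gene. CENPF and SKA2 stand clear above their controls and CENPH clear below, while most other members lie close to theirs.

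CENPF rose most among the members. It encodes a very large coiled-coil protein of the kinetochore corona, the outermost layer, which gathers before mitosis and is broken down after it. Its level was 362, 415 and 449 CPM in RNF6 siRNA replicates 1, 2 and 3, against 193, 130 and 144 CPM in control replicates. Every RNF6 siRNA library was above every control library. The rise was 2.63-fold (log2 fold change 1.39, SE 0.140, adjusted p = 1.57e-05), which ranks 138 from the top among the 14685 genes tested. Counted per kilobase of exon, CENPF had the highest mean of the members after RNF6 siRNA, at 34.96 CPM per kilobase. CENPW was close behind it, at 33.9. In controls CENPF ranked 11, at 13.3.

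CENPE, a kinesin motor of the same corona that carries chromosomes along microtubules, also rose. It was at 89.8, 128 and 117 CPM in RNF6 siRNA replicates 1, 2 and 3, against 84.6, 56.7 and 65.9 CPM in control replicates, so the lowest RNF6 siRNA library lay only just above the highest control. The fold was 1.61 (adjusted p = 0.00503). The remaining genes of this group are CENP genes by name: CENPJ serves the building of centrioles, and CENPV has been tied to centromere organisation. CENPJ was at 44.5 ± 3.60 CPM after RNF6 siRNA and 45.7 ± 4.70 CPM in controls, and CENPV at 21.6 ± 0.631 and 22.7 ± 2.30 CPM. Neither was called, with 95% intervals of the log2 fold change of −0.29 to 0.21 and −0.33 to 0.20.

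The SKA complex, 3 proteins that track microtubule ends and strengthen the grip of NDC80, was split. SKA2 was at 84.0, 81.2 and 90.5 CPM in RNF6 siRNA replicates 1, 2 and 3, against 39.5, 33.1 and 33.0 CPM in control replicates. The groups were far apart, and the rise was 2.43-fold (log2 fold change 1.28, SE 0.113, adjusted p = 5.77e-06), ranking 197 among all tested genes. SKA1 was at 34.7 ± 2.89 CPM after RNF6 siRNA and 34.45 ± 4.36 CPM in controls, and SKA3 at 42.4 ± 2.09 and 43.1 ± 1.16 CPM. Their 95% intervals were −0.26 to 0.28 and −0.24 to 0.20 on the log2 scale, so a change of the size of SKA2 lies outside both.

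In the KNL1-MIS12-NDC80 network, the outer kinetochore, 3 of 10 members rose and 0 fell by edgeR's test, while 2, SPC25 and NSL1, had an unadjusted p below 0.05 for lower levels. DESeq2 and limma-voom also called 0 lower. The called share by edgeR was 30%, near the 32.7% of all genes tested, of which 16.6% were higher and 16.1% lower. No such share was computed at an unadjusted p. CASC5, the older symbol of KNL1, the scaffold on which the spindle checkpoint assembles, was at 99.0, 126 and 134 CPM in RNF6 siRNA replicates 1, 2 and 3, against 84.9, 54.1 and 67.0 CPM in control replicates. The groups did not overlap, although control replicate 1 came close, and the fold was 1.74 (adjusted p = 0.00205). ZWINT, which binds the KNL1 protein, was at 62.2 ± 2.49 CPM after RNF6 siRNA and 62.1 ± 2.28 CPM in controls, with a 95% interval of −0.21 to 0.22.

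NDC80, the microtubule-binding subunit that names its complex, was at 68.1, 75.1 and 64.3 CPM in RNF6 siRNA replicates 1, 2 and 3, against 53.0, 47.0 and 42.8 CPM in control replicates. The groups stood apart, with a rise of 1.45-fold (adjusted p = 0.00336). Its coiled-coil partner NUF2 was at 67.7 ± 4.32 CPM after RNF6 siRNA and 59.4 ± 4.24 CPM in controls (adjusted p = 0.193). SPC24 and SPC25 form the other end of the complex. SPC24 was at 22.7, 24.4 and 22.9 CPM in RNF6 siRNA libraries, against 15.4, 19.97 and 19.1 CPM in controls (adjusted p = 0.0546). SPC25 was at 22.9, 20.3 and 20.2 CPM in RNF6 siRNA libraries, against 25.8, 27.0 and 25.1 CPM in controls (adjusted p = 0.0724). For both genes the groups did not overlap, in opposite directions, and neither passed the test.

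Of the MIS12 complex, which joins inner to outer kinetochore, DSN1 was at 50.5, 45.9 and 50.1 CPM in RNF6 siRNA replicates 1, 2 and 3, against 36.8, 39.7 and 37.5 CPM in control replicates. The groups were separate, and the fold was 1.29 (adjusted p = 0.0182). NSL1, in the same complex, was at 26.8, 30.5 and 30.6 CPM in RNF6 siRNA libraries, against 39.1, 34.0 and 34.7 CPM in controls (adjusted p = 0.0669). All RNF6 siRNA libraries were lower for NSL1, but the test was not passed. MIS12 and PMF1 were at 21.5 ± 2.68 and 5.78 ± 1.25 CPM after RNF6 siRNA and 23.5 ± 3.93 and 6.50 ± 0.861 CPM in controls, with overlapping libraries. Exons of a read-through gene lie over 23.3% of PMF1, whose reads there would count as ambiguous. DSN1 was no longer called once control 3, RNF6 siRNA 1 or RNF6 siRNA 3 was left out, with adjusted p of 0.0970, 0.0593 and 0.0850 in that order. Over all alternatives its adjusted p spanned 0.00110 to 0.100.

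The constitutive centromere-associated network, counted here with 13 members, held both members that fell. CENPH, whose protein sits in a subunit with CENPI, CENPK and CENPM, was at 4.31, 5.59 and 3.67 CPM in RNF6 siRNA replicates 1, 2 and 3, against 14.8, 12.4 and 12.7 CPM in control replicates. The log2 fold change was −1.58 with an SE of 0.179, a level 2.996-fold lower (adjusted p = 3.91e-05). The groups did not overlap, and CENPH ranked 14606 of 14685 genes from the top. The call rests on 47, 38 and 41 reads in the RNF6 siRNA libraries and 108, 111 and 119 in the controls. CENPM was at 9.44, 6.77 and 9.03 CPM in RNF6 siRNA libraries, against 11.1, 16.1 and 12.9 CPM in controls, a level 1.57-fold lower (adjusted p = 0.0135). Its groups did not overlap either, but CENPM lost its call once RNF6 siRNA 2 was left out (adjusted p = 0.0559, spanning 9.14e-04 to 0.0640 over all alternatives).

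CENPK and CENPI, the other partners of CENPH, were not called. CENPK was at 12.6, 15.2 and 17.1 CPM in RNF6 siRNA replicates 1, 2 and 3, against 13.2, 9.26 and 10.8 CPM in control replicates (adjusted p = 0.0597), with the groups overlapping. CENPI was at 18.2 ± 3.68 CPM after RNF6 siRNA and 15.5 ± 1.54 CPM in controls (adjusted p = 0.323). Both had a fitted log2 fold change above 0, at 0.44 and 0.22.

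Of the 13 members counted in this network, CENPL and CENPU rose. ITGB3BP and APITD1, which encode CENP-R and CENP-S, were not among the members and are counted below with other centromere genes. ITGB3BP was 1.63-fold higher (adjusted p = 5.53e-04). APITD1 was 2.20-fold lower on few reads (adjusted p = 0.00535). CENPL, which with CENPN recognises the CENP-A nucleosome, was at 14.8, 15.9 and 14.04 CPM in RNF6 siRNA libraries, against 12.1, 9.82 and 9.89 CPM in controls (1.41-fold, adjusted p = 0.0181). CENPU, which docks the mitotic kinase PLK1, was at 38.4, 43.1 and 41.4 CPM in RNF6 siRNA libraries, against 34.98, 25.1 and 29.6 CPM in controls (1.37-fold, adjusted p = 0.0171). Neither gene's groups overlapped. Leaving out control 2, control 3 or RNF6 siRNA 2 took the adjusted p of CENPL to 0.0596, 0.0998 and 0.0594 in that order, within a span of 0.00576 to 0.0998 over all alternatives. For CENPU, leaving out control 2, control 3, RNF6 siRNA 2 or RNF6 siRNA 3 gave 0.0637, 0.0793, 0.0626 and 0.0720, within a span of 7.93e-04 to 0.0793. The number of network members called higher was 0 with control 3 or RNF6 siRNA 2 left out, 1 with control 2 or RNF6 siRNA 3 left out, and 4 with control 1 or RNF6 siRNA 1 left out. The number called lower was 1 with RNF6 siRNA 2 left out.

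Of the rest of the network, CENPT, the DNA-bound protein that recruits NDC80, was the most abundant by CPM. It was at 56.2, 49.9 and 46.1 CPM in RNF6 siRNA libraries, against 36.2, 50.9 and 41.7 CPM in controls (adjusted p = 0.194), and the groups overlapped. CENPC, the scaffold that ties CENP-A chromatin to the MIS12 complex, was at 36.1 ± 3.89 CPM after RNF6 siRNA and 28.2 ± 3.94 CPM in controls (adjusted p = 0.0566). CENPN, CENPO, CENPP, CENPQ and CENPW were not called either, with log2 fold changes between −0.32 for CENPP and 0.24 for CENPQ. Per kilobase of exon CENPW, a small histone-fold partner of CENPT, was the most abundant member in controls, at 33.9 CPM per kilobase after RNF6 siRNA and 29.9 in controls. CENPP was the least, at 0.601 and 0.758 CPM per kilobase, and exons of other genes lie over 42.7% of it. The same holds for 31.4% of CENPO and 22.8% of CENPN, so these 3 levels are uncertain.

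At the centromeric chromatin itself, CENPA rose. It was at 25.3, 26.5 and 24.8 CPM in RNF6 siRNA replicates 1, 2 and 3, against 16.7, 16.7 and 17.9 CPM in control replicates. Replicates lay close together and the groups well apart, with a rise of 1.49-fold (adjusted p = 0.00258). HJURP, the chaperone that delivers CENP-A to the centromere, was the most abundant gene of this set, at 91.9, 87.1 and 88.3 CPM in RNF6 siRNA libraries against 79.8, 76.1 and 73.1 CPM in controls. All its RNF6 siRNA libraries were higher, yet the call was not reached (1.17-fold, adjusted p = 0.0933).

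MIS18A and OIP5 encode the paired Mis18 subunits that license the loading. MIS18A was at 34.95 ± 3.24 CPM after RNF6 siRNA and 30.7 ± 2.45 CPM in controls, and OIP5 at 8.39 ± 0.529 and 10.3 ± 1.73 CPM, neither called. An antisense gene lies over 38.0% of OIP5. The strand setting was not stated, and reads counted there without regard to strand would be set aside as ambiguous, so this level is uncertain. CENPB, which binds a motif in centromeric repeats, was at 61.9 ± 7.18 CPM after RNF6 siRNA and 73.1 ± 15.6 CPM in controls (adjusted p = 0.238). CENPB was called lower once control 1 was left out (adjusted p = 0.00807, the lowest of a span up to 0.762).

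**Figure D2:**
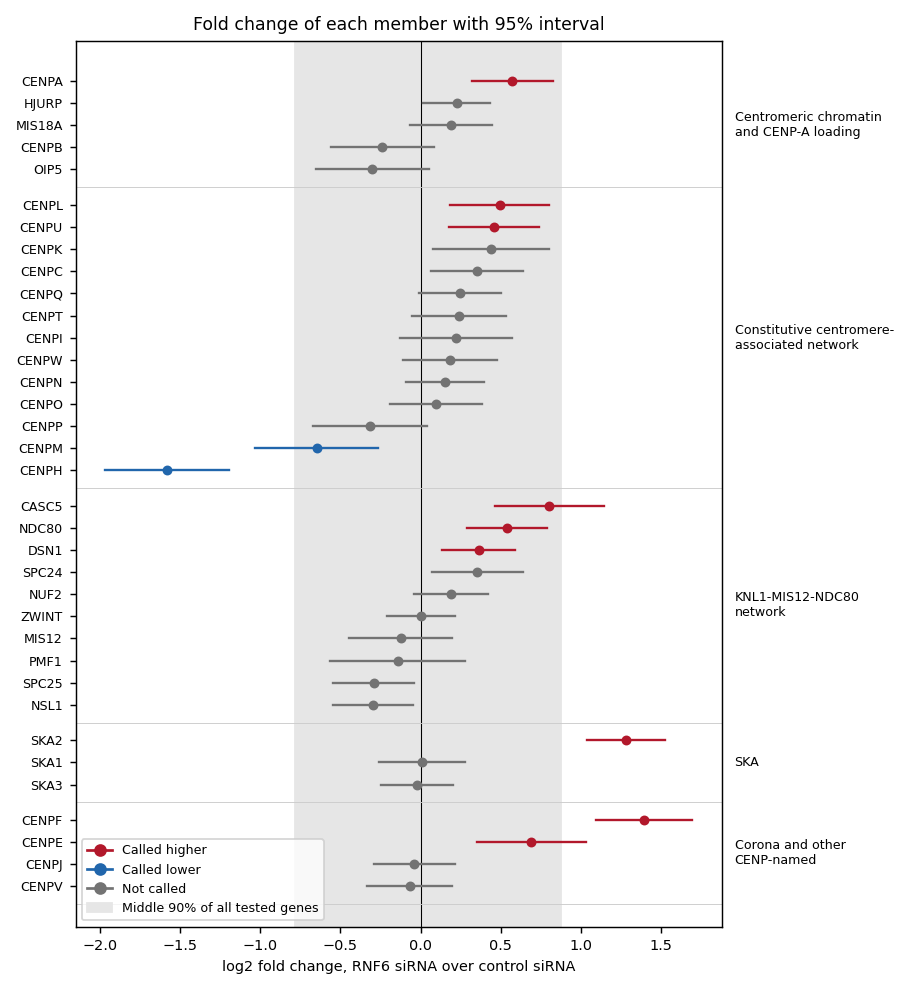
Log2 fold change of each member (RNF6 siRNA over control siRNA) with its 95% interval, by subcomplex; red is called higher, blue called lower and grey not called, and the shaded band holds the middle 90% of all tested genes. CENPF at 1.39, SKA2 at 1.28 and CENPH at −1.58 lie outside the band.

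To see how binding partners moved against each other, the ratio of their CPM values was taken within each library for 15 partner pairs, which removes the scaling between libraries. The pairs were chosen by known contacts, with earlier results of these data known. A design of 3 against 3 cannot give an exact permutation p below 0.1, and the adjusted value over 15 pairs was then 0.125, so no pair could pass and the ratios are a description. The groups did not overlap for 12 of the 15 pairs, but no share was computed for other pairs of genes, so nothing is read from that count.

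The CENPH to CENPK ratio was 0.341, 0.369 and 0.215 in RNF6 siRNA replicates 1, 2 and 3, against 1.12, 1.34 and 1.17 in control replicates. The ratio was thus 4.02-fold lower, the widest gap of the 15. The SKA2 to SKA1 ratio was 2.37, 2.19 and 2.88 in RNF6 siRNA libraries, against 1.003, 1.01 and 1.06 in controls, 2.40-fold higher. The SKA3 to SKA1 ratio overlapped between the groups, at a geometric mean of 1.23 after RNF6 siRNA and 1.26 in controls.

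Within the outer kinetochore the SPC24 to SPC25 ratio was 0.992, 1.20 and 1.13 in RNF6 siRNA libraries, against 0.596, 0.740 and 0.763 in controls (1.59-fold). The DSN1 to NSL1 ratio was 1.89, 1.51 and 1.64 in RNF6 siRNA libraries, against 0.940, 1.17 and 1.08 in controls (1.58-fold). NDC80 to NUF2 gave 0.992, 1.05 and 1.0199 in RNF6 siRNA libraries, against 0.848, 0.767 and 0.784 in controls (1.28-fold). Each of these 3 ratios was higher in all RNF6 siRNA libraries. CENPT to CENPW and MIS12 to PMF1 overlapped between the groups.

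**Figure D3:**
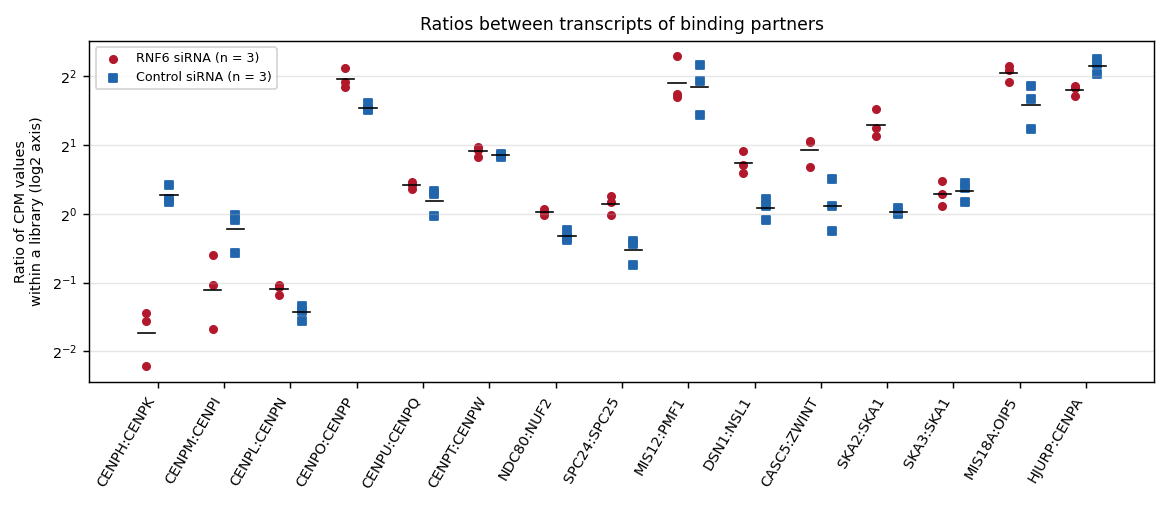
Ratio of the CPM values of binding partners within each library (log2 axis) for 15 pairs; red circles are RNF6 siRNA and blue squares control siRNA libraries (n = 3 each), and black lines are geometric means. The CENPH:CENPK ratio lies far lower and the SKA2:SKA1 ratio far higher in RNF6 siRNA libraries, and SKA3:SKA1 overlaps.

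The members that rose include the 3 with the most exon sequence apart from CENPP. Exon length was 11690 bases for CENPF, 10250 for CASC5, 9794 for CENPP and 9444 for CENPE. Over the 35 members, length and log2 fold change had a Spearman correlation of 0.365, a description only, against 0.131 over 12925 tested genes with a length. Among all tested genes with over 9000 exon bases 22.4% were called higher and 11.5% lower, against 15.7% and 17.9% of shorter genes, so the share called higher was larger among long genes as a class too.

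The levels of CENPF and CASC5 were ordered within each group as the share of reads that matched no annotated gene, and those of CENPE only in controls. That share was 7.26%, 8.60% and 9.23% in RNF6 siRNA replicates 1, 2 and 3, against 9.04%, 5.90% and 7.07% in control replicates. CENPE peaked in RNF6 siRNA replicate 2 and the share in replicate 3. With the trend on exon length removed from each library, the log2 fold changes were 1.31 for CENPF, 0.73 for CASC5 and 0.62 for CENPE. With the share of unmatched reads as a covariate they were 1.23, 0.59 and 0.49. All 3 stayed called in both fits, which were added after seeing the data. Over all alternatives the highest adjusted p was 0.00117 for CENPF, 0.0204 for CASC5 and 0.0400 for CENPE. What part of the remaining rise goes with either measure was not tested.

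**Figure D4:**
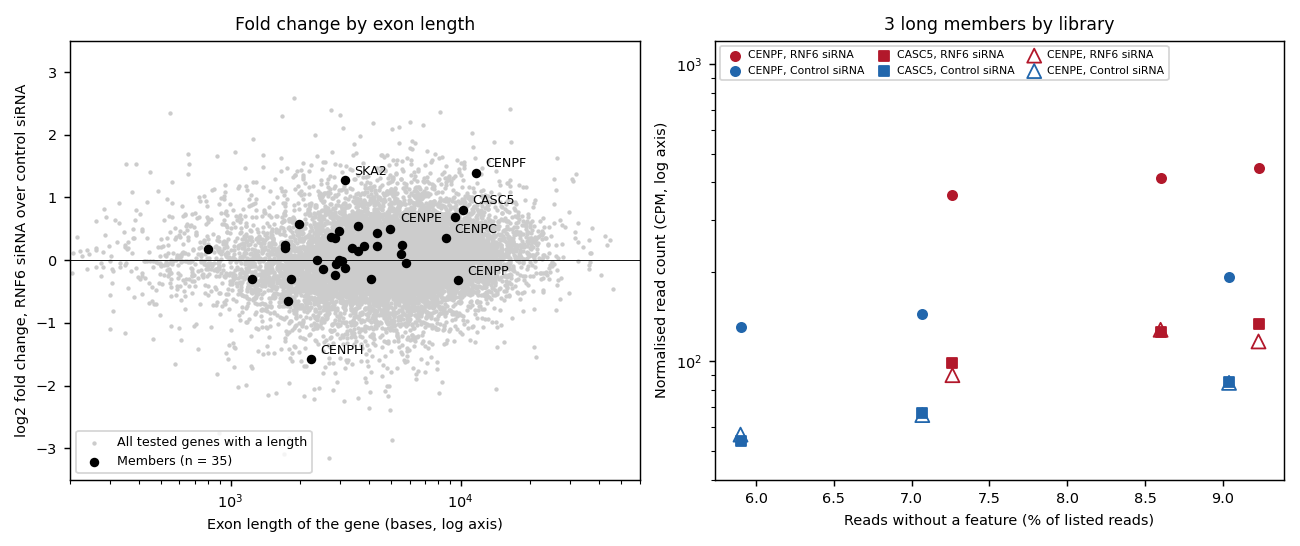
Left, log2 fold change (RNF6 siRNA over control siRNA) against exon length (bases, log axis) for all tested genes with a length (grey) and the 35 members (black). Right, CPM (log axis) of CENPF, CASC5 and CENPE in each library against the percentage of listed reads without a feature; RNF6 siRNA libraries (red) lie above control libraries (blue) at similar percentages, and both sets climb to the right, except that CENPE after RNF6 siRNA peaks at 8.60%.

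Of the members that rose, 7 had a promoter entry, and 4 of these are shown, picked after their motifs were seen to include windows with and without them, because late cell-cycle genes often carry a CCAAT box, bound by the NF-Y factor, and a CHR element, bound by the DREAM and FOXM1 complexes. The 250 bases before the RefSeq start (GRCh38.p14, another build than the hg19 of the counts) are given 5′ to 3′ on the transcribed strand, with CCAAT or its reverse ATTGG and the CHR form TTTGAA or its reverse TTCAAA in capitals. CENPF lies at chr1:214602945-214603194 on the plus strand, SKA2 at chr17:59155187-59155436 on the minus strand, CENPA at chr2:26785806-26786055 on the plus strand and NDC80 at chr18:2571307-2571556 on the plus strand.
CENPF: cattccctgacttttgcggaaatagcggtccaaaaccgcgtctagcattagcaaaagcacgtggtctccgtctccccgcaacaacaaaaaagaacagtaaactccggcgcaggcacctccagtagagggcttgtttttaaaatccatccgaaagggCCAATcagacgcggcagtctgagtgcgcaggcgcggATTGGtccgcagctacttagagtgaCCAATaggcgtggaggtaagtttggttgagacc
SKA2: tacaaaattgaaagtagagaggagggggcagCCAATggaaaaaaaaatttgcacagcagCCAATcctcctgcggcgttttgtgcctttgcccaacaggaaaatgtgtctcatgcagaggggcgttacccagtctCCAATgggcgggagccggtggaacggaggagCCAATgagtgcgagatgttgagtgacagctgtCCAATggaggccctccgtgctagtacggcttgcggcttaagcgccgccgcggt
CENPA: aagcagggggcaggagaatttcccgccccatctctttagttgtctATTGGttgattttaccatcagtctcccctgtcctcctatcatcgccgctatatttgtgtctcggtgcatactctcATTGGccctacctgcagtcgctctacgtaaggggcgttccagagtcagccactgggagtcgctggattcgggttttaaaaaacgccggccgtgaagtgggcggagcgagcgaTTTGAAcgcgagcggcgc
NDC80: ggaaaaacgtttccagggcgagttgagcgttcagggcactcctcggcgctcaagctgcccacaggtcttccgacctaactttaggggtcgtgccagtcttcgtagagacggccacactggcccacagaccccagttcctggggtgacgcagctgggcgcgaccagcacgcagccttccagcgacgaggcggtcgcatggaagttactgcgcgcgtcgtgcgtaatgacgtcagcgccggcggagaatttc

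CENPF held 3 CCAAT boxes and SKA2 5, on either strand, CENPA held 2 and a CHR form 18 bases before its start, and NDC80 held neither. Of the 7 that rose, 4 held CCAAT (CENPU besides CENPF, SKA2 and CENPA) and 3 held neither motif (CENPE and DSN1 besides NDC80). A promoter was listed for 29 members, and for genes with several starts the first listed was used. CCAAT was found in 16 of the 29, or 55.2%, against 33.0% of 27305 genes. The 27305 are all genes with a promoter entry, tested here or not, while all 29 members were tested, so the sets are not alike. TTTGAA was found in 5 of the 29, or 17.2%, against 13.6%, and both in 17.2% against 4.85%. No CCAAT overlapped a TTTGAA in these windows. HJURP, CENPC, SPC25 and ZWINT, which held both besides CENPA, were not called. Such matches are descriptions, not bound sites.

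Genes that work beside the members were counted from lists of related genes. Among all genes tested 16.6% were called higher and 16.1% lower, at a median log2 fold change of 0.01. Among chromosomal passengers and shugoshins, which correct and guard attachments, 4 of 7 rose, at a median log2 fold change of 0.52. By edgeR's test 0 fell, as by DESeq2, limma-voom and unadjusted p (0 each). INCENP, the scaffold of the passenger complex, was 2.25-fold higher (132 ± 13.9 CPM after RNF6 siRNA and 58.5 ± 1.29 CPM in controls, adjusted p = 8.03e-06). The kinase gene AURKB and the passenger gene BIRC5 were each 1.88-fold higher, and SGOL2, a guard of cohesion, 1.44-fold. CDCA8, SGOL1 and GSG2 were 1.10-fold, 1.21-fold and 1.23-fold higher and were not called (adjusted p = 0.393, 0.125 and 0.104). SGOL2, whose groups overlapped, lost its call with control 3, RNF6 siRNA 2 or RNF6 siRNA 3 left out, at adjusted p of 0.0968, 0.0976 and 0.0632 within a span of 9.34e-05 to 0.0976. Of 8 condensin subunits, which compact chromosomes, 6 rose and 0 fell by edgeR's test, as by DESeq2 and limma-voom (0 also at an unadjusted p below 0.05), with NCAPD2 1.90-fold, SMC4 1.82-fold, NCAPH 1.31-fold and NCAPD3 1.29-fold higher. The number higher was 3 with control 2 or RNF6 siRNA 3 left out and 2 with control 3 left out. NCAPH then missed the call with control 3 left out (adjusted p = 0.0718, the highest of a span from 7.31e-04). NCAPD3 missed it with control 2, control 3 or RNF6 siRNA 3 left out, at adjusted p of 0.0566, 0.0838 and 0.102 within a span of 0.00188 to 0.102.

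The spindle checkpoint and the RZZ complex, which halt anaphase until chromosomes are attached, showed 3 of 12 higher and 1 lower, at a median of −0.01. The called share of 33.3% was near the 32.7% of all genes tested. ZW10, of the RZZ complex that brings dynein to kinetochores, was 2.87-fold higher (46.5 ± 2.95 CPM after RNF6 siRNA and 16.2 ± 0.386 CPM in controls, adjusted p = 2.12e-06), and its partner KNTC1 1.73-fold higher. The kinase gene TTK was 1.302-fold higher, and TRIP13, which disassembles the checkpoint complex, 1.70-fold lower. With control 3, RNF6 siRNA 2 or RNF6 siRNA 3 left out TTK had adjusted p of 0.0755, 0.0648 and 0.0609, within a span of 0.00210 to 0.0904.

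Of 9 other centromere genes 4 rose and 1 fell, a called share of 55.6% against 32.7% of all genes tested. ITGB3BP, which encodes CENP-R, was 1.63-fold higher, the histone-binding gene RBBP7 1.35-fold, and CENPBD1, named for a CENP-B-like domain, 2.64-fold, at 3.02 ± 0.420 CPM after RNF6 siRNA against 1.145 ± 0.469 CPM in controls. APITD1, which encodes CENP-S, was 2.20-fold lower at 1.59 ± 0.406 CPM after RNF6 siRNA and 3.38 ± 0.359 CPM in controls. Both calls rest on few reads. CENPBD1 had 28, 21 and 38 reads in RNF6 siRNA replicates 1, 2 and 3, against 9, 14 and 6 in control replicates. APITD1 had 15, 14 and 15, against 23, 34 and 30. The number lower was 2 with control 1 or RNF6 siRNA 1 left out. Of 9 genes that couple kinetochores to microtubules 3 rose, MAPRE1 1.42-fold, KIF18A 1.44-fold and KIF2C 1.28-fold, and NDEL1 was 1.24-fold lower. Here the called share was 44.4%, against 32.7% of all genes tested. KIF2C missed the call with control 3 or RNF6 siRNA 3 left out, at adjusted p of 0.0833 and 0.0551 within a span of 7.79e-05 to 0.0871. NDEL1 missed it with control 3, RNF6 siRNA 1, RNF6 siRNA 2 or RNF6 siRNA 3 left out, at 0.182, 0.0914, 0.126 and 0.0617 within a span of 0.00673 to 0.182. It also missed it without a filter on low counts (0.0581) and with upper-quartile scaling (0.0511). The list had 2 genes lower with control 2 left out or the exon-length trend removed, and 3 with the share of unmatched reads as covariate.

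Genes of G2 and M phase in general, among them cyclins and spindle proteins, rose for 8 of 16, at a median of 0.32, and fell for 0 by edgeR's test, as by DESeq2, limma-voom and unadjusted p (0 each). Rises made up 50% of the list, against 16.6% of all genes tested, where the median was 0.01 and 16.1% were lower. NUSAP1 was 1.83-fold, CCNB2 1.76-fold, UBE2C 1.75-fold and PRC1 1.502-fold higher. MKI67 and TOP2A, chosen after their values were seen, had log2 fold changes of −0.18 and −0.22 and were not called. RNF6 siRNA libraries all lay below the controls for CCNA2 and AURKA, neither of them called. Such lower groups were found for 2 of the 16 and such higher groups for 9, against 21.8% and 22.4% of all genes tested. With control 2 left out or the exon-length trend removed 1 gene was called lower, and with the share of unmatched reads as covariate 3 were. Genes of G1 and S phase went both ways, 3 of 16 higher and 3 lower, at a median of 0.19, and the number higher was 6 with control 1 left out, 5 with the exon-length trend removed and 7 with the covariate. In the main fit 37.5% of this list was called, against 32.7% of all genes tested, and 18.75% was higher, against 16.6%. The cyclin E gene CCNE1 was 2.47-fold and the histone mRNA-binding gene SLBP 1.34-fold lower, while the replication licensing gene CDT1 was 1.48-fold and RRM2 1.32-fold higher. RRM2 missed the call with control 3 left out (adjusted p = 0.0666, the highest of a span from 2.24e-04).

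Of 23 transcription factors, pocket proteins and other parts of the complexes that govern cell-cycle genes, 6 rose and 3 fell. With control 1 left out or with the covariate 5 were lower. In the main fit 39.1% of this list was called, against 32.7% of all genes tested, and 26.1% was higher, against 16.6%. E2F6, a repressor, was 2.09-fold lower, E2F7, another repressor, 1.85-fold higher, the pocket protein gene RBL2 1.63-fold higher and NFYA, a subunit of the CCAAT-binding NF-Y, 1.41-fold higher. FOXM1 and MYBL2, chosen after their values were seen, had log2 fold changes of 0.32 (adjusted p = 0.0380) and 0.06 (adjusted p = 0.701).

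**Figure D5:**
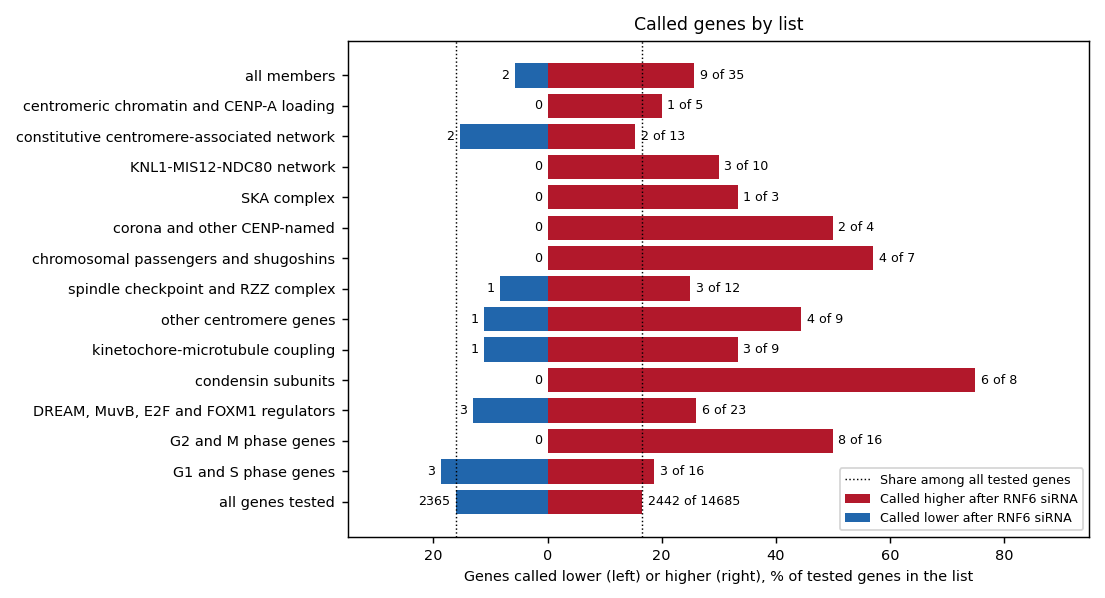
Percentage of tested genes in each list called higher (red, right) or lower (blue, left) after RNF6 siRNA against control siRNA, with counts; dotted lines mark the shares among all 14685 tested genes, 16.6% higher and 16.1% lower. The inner network has equal counts both ways, and the condensin list has the highest share of rises.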

How the data were processed

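The authors deposited whole-number read counts per gene symbol, not normalised, for each library. Per the submitters' processing notes the reads were aligned with TopHat2 2.0.11 to hg19 (GRCh37) and counted with HTSeq, but its version, strand setting and annotation were not given in the sources used. HTSeq sets aside ambiguous reads, so overlapping genes lose reads. Rows that name no gene held 27.3% to 29.4% of listed reads and were left out.

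Counts were fitted in edgeR 4.0.16 (R 4.3.3): genes kept by filterByExpr (minimum count 10, minimum total 15), TMM scaling, and a robust quasi-likelihood F test on the group over all 6 libraries, two-sided, with Benjamini-Hochberg adjustment over 14685 genes, called below 0.05. Adjusted p-values come from edgeR where no tool is named. A positive log2 fold change means higher after RNF6 siRNA, and the prior count was 0.125. The SE is the absolute log2 fold change over the square root of F, and intervals are at 95%. Means carry the SD of 3 libraries. The fit was tested on simulated data, where it recovered large changes more fully than small ones and its share of false calls was above the nominal threshold. DESeq2 1.42.0 and limma 3.58.1 gave alternatives.

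The members and gene lists were chosen with earlier results of these data known. Values per library are given for called members and for each subcomplex's most abundant member, and for others where partners are compared, which was decided after their values were seen. From each related list up to 4 called genes with the smallest adjusted p are named. Exon lengths and overlaps are from GENCODE 29 (GRCh38), matched by symbol for 35 of 35 members and 88.0% of tested genes. Promoters are from RefSeq. Groups and replicate numbers come from the sample titles. Alternatives were other scalings, no filter, both other tools, a replicate block, each library left out and, added after seeing the data, removal of the exon-length trend and the share of reads without a feature as a covariate.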

Additional observations from a re-analysis of the deposited data

How the results depend on the processing

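Among 14 alternatives, 2 of them added after seeing the data, 7 of the 11 called members were called in every fit (CENPA, CENPE, CENPF, CENPH, CASC5, NDC80 and SKA2), 4 were lost in at least 1 (CENPL, CENPM, CENPU and DSN1), and 9 others were called in at least 1 (CENPB, CENPC, CENPK, CENPQ, CENPT, CENPW, HJURP, NSL1 and SPC24). The counts in the SKA complex and in the corona set were the same in every alternative. No called value changed sign. RNF6 kept its direction and its call in all. Leaving out 1 library at a time gave 6 to 11 members higher and 1 to 3 lower, 0 to 4 higher and 1 to 2 lower in the constitutive centromere-associated network, and 0 to 1 lower in centromeric chromatin. Over all genes it gave 1514 to 2910 higher and 1478 to 2967 lower, with the lowest counts without control 3 (1514 and 1595) and without RNF6 siRNA 3 (1529 and 1478).

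Replicate numbers did not pair the libraries: deviations from the group means correlated at −0.463, −0.252 and 0.0519 for same-numbered libraries 1, 2 and 3. Differently numbered libraries correlated at −0.244 to 0.461. The highest were RNF6 siRNA 1 with control 2, at 0.461, and RNF6 siRNA 2 with control 1, at 0.301. What these libraries share was not tested. With the number as a replicate block, 1421 genes were higher and 1321 lower against 2442 and 2365, 6 members were higher and 1 lower, and the inner network had 0 higher and 1 lower. Among related genes the block took the condensin list to 2 higher, the G1 and S phase list to 1 higher and the microtubule-coupling list to 0 lower. CDT1 (adjusted p = 0.0558), KIF2C (0.0871), NCAPD3 (0.0797), NCAPH (0.0702), NDEL1 (0.128), SGOL2 (0.0824) and TTK (0.0904) were not called under it. Upper-quartile scaling gave 12 members higher, 4 of them in that network. With the exon-length trend removed 13 members were higher and 2 lower, and with the share of unmatched reads as covariate 13 higher and 3 lower. In both of these 4 were higher in the inner network and 2 in centromeric chromatin, and the covariate fit had 1 outer member lower (NSL1). The cause of these moves was not tested. At this depth PMF1, CENPH and CENPP had the fewest reads.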
